A study of Homo sapiens with 9 samples.

Results

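The retinoblastoma protein and its E2F partners were followed through 24 probe sets for 10 genes, out of 49293 probe sets and 18132 genes on the arrays. A probe set was taken when the array annotation tied it to exactly 1 gene symbol and that symbol was RB1, RBL1, RBL2, E2F1, E2F2, E2F3, E2F4, E2F5, E2F7 or E2F8. RB1, RBL1, E2F3 and E2F8 each had 3 probe sets, RBL2 had 4, E2F2, E2F4 and E2F7 each had 2, and E2F1 and E2F5 each had 1. The samples were 9 Affymetrix expression arrays of Y79, an established human retinoblastoma cell line grown in RPMI medium, which some labels spell Y97. One group of 3 arrays came from untreated cells (Control). A second group of 3 came from cells given gold nanoparticles alone (GNPs, the bare particle), and another 3 came from cells given gold nanoparticles carrying a Human Double Minute 2 peptide (GNPs-HDM2, the conjugate). The study was aimed at a conjugate that blocks the binding of p53 to HDM2, and the bare particle served as the control for the carrier. The labels gave no dose, exposure time, batch or separate cultures, and p-values here reflect array-to-array spread alone, which may be technical.

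RB1 encodes the pocket protein that holds E2F transcription factors inactive until cyclin-dependent kinases phosphorylate it at the end of G1, and RBL1 (p107) and RBL2 (p130) are its relatives. E2F1, E2F2 and E2F3 are the activators that RB1 binds. E2F4 and E2F5 repress their targets together with RBL1 and RBL2, and the atypical members E2F7 and E2F8 repress without a pocket protein. Loss of RB1 starts most retinoblastomas, and Y79 is known to lack functional RB1 protein, so its RB1 transcript is measured here in cells without the working protein.

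Several E2F and pocket protein genes carry E2F sites in their own promoters, so the start of each gene is shown where a classical site was found. The RefSeq promoter table (GRCh38.p14) held an entry for 8 of the 10 genes, and the 250 bases before each start were searched on both strands for TTTCCCGC, TTTCGCGC, TTTGCCGC and TTTGGCGC. A match was found for 4 genes, RBL1, E2F1, E2F2 and E2F3, and no match overlapped another. Of all 27305 genes in the table, 3.4% held such a match, and so did 2.79% of its 35116 promoters. The 100 bases before the start of each of the 4 genes read as follows, 5′ to 3′ on the strand of the gene, with the matches in capitals (chr20:37095998-37096097, minus strand, for RBL1, chr20:33686386-33686485, minus strand, for E2F1, chr1:23531234-23531333, minus strand, for E2F2 and chr6:20401779-20401878, plus strand, for E2F3).
RBL1: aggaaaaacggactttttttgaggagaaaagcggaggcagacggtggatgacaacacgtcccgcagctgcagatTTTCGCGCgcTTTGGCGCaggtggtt
E2F1: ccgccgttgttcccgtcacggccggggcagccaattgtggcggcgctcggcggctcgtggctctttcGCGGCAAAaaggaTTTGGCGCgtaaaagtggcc
E2F2: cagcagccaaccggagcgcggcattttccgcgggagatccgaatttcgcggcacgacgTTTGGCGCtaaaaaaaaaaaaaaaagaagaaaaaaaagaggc
E2F3: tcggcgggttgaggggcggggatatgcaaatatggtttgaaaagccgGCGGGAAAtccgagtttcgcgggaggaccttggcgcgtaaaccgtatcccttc
RBL1 held TTTCGCGC 26 bases and TTTGGCGC 16 bases before its start, counted to the first base of the match. E2F1 held TTTGCCGC on the opposite strand 33 bases before its start and TTTGGCGC 20 bases before it. E2F2 held TTTGGCGC 42 bases before its start, and E2F3 held TTTCCCGC on the opposite strand 53 bases before its start. No match was found in the entries of RBL2, E2F4 and E2F7, in the other E2F3 entry, or in the RB1 entry, which lies at an internal start of that gene (chr13:48476200-48476499). A match is a description of the letters and not a measured binding site.

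Each probe set was deposited as a log value, read here as log2, relative to its own baseline, so a value says how an array stood against that baseline and nothing about absolute level. The stored numbers kept a trace of the level under the baseline, from which probe sets were classed as dim, middle or bright. On the conjugate arrays the classes moved apart: dim probe sets shifted from untreated by a median of 0.50, those of the middle class by 0.18 and bright ones by -1.26, against 0.23 over all. The third conjugate array (replicate 3 in the labels) lay nearer the untreated arrays than the other two, with a bright median of -0.34 against -1.39 and -1.89. Added hybridization controls, which do not come from the cells, averaged 1.68 (SD 0.30, n = 3) on the conjugate arrays and -0.38 (SD 0.05, n = 3) on the untreated arrays. The 3′ minus 5′ value of GAPDH, a sign of RNA quality, was 0.54 (SD 0.13, n = 3) and 0.04 (SD 0.04, n = 3) in the same order, and that of ACTB was 0.26 (SD 0.02, n = 3) and 0.16 (SD 0.27, n = 3), where the groups overlapped. On the bare particle arrays GAPDH stood at -0.07 (SD 0.07, n = 3) and ACTB at -0.13 (SD 0.15, n = 3), without overlap with the conjugate arrays in either gene. Of 10 photoreceptor and retinoblastoma markers measured, 5 had a bright probe set (CRX, OTX2, NRL, PDE6H and MYCN), against 0 of 5 fibroblast and 0 of 4 pigment epithelium genes, 1 of 3 blood cell genes (CD3E) and 1 of 3 Mueller glia genes (GLUL). With the conjugate 5 of these 10 markers fell, 2 fibroblast, 3 blood cell and 3 pigment epithelium genes rose, and of the Mueller glia genes 1 fell and 1 rose. Over all genes 25.1% fell and 33.1% rose, and by level class 64% of bright probe sets fell and 33.2% of dim ones rose. The part of these shifts in the results below was not tested, and values after every array was centred on the median of each level class are given where they bear on a result. Fewer cells of a type and less RNA per cell cannot be told apart in these bulk samples.

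With the conjugate, 7 of the 24 probe sets fell and 2 rose relative to untreated cells (limma, adjusted p under 0.05 over all probe sets). Across the array 23.7% of probe sets fell and 24.9% rose, so the falling share was near the background. The conjugate arrays varied more than the others (median within-group SD 0.47 against 0.18 for untreated and 0.12 for the bare particle), and in simulated arrays with those spreads this fit made more false calls in the conjugate comparisons than its threshold allows. With array weights that let the groups differ in spread, 5 fell (RB1 11717702_a_at, both E2F3 probe sets, E2F5 and E2F7 11730029_a_at) and 0 rose. The 7 that fell were 1 of RB1, 1 of RBL2, 1 of E2F2, 2 of E2F3, the only 1 of E2F5 and 1 of E2F7. The 2 that rose were 1 of RBL1 and 1 of E2F7. The median change over the 24 was -0.16, against 0.23 over all probe sets. By level class, 4 of the 6 bright probe sets of these genes fell against 64% of bright probe sets on the array, 3 of the 13 in the middle class fell against 23.6%, and 0 of the 3 dim ones fell against 0.598% (limma, and 0 also at an unadjusted p of 0.05). Without conjugate array 3, 11 of the 24 fell and 5 rose, without untreated array 3, 4 fell and 0 rose, without untreated array 2, 5 fell and 0 rose, and without conjugate array 1, 4 fell and 0 rose. The shares of all probe sets called in these fits, or with array weights, were not worked out. Whether these counts depart from the array is therefore not known. In the middle class 2 of the 13 rose against 27.2%, while 0 of the 6 bright ones rose against 4.6% and 0 of the 3 dim ones against 33.2% (0 of both at an unadjusted p of 0.05). E2F8 11728957_a_at and 11747943_a_at could not be classed, and neither was called. Without a class, they were centred on the array median of the class-centred values. By construction this left their differences from untreated almost as deposited, at 0.08 and -0.33, and says nothing about an effect of level.

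Of the 3 RB1 probe sets, 1 fell steeply with the conjugate and the other two did not pass the test. The falling one, 11717702_a_at, was designed on the RefSeq RB1 mRNA and lies in the middle class. It read -0.17, 0.64 and 0.33 on the untreated arrays, -0.02, 0.36 and 0.11 on the bare particle arrays, and -2.50, -3.19 and -2.12 on the conjugate arrays. All 3 conjugate arrays lay far below the other 6, and the untreated and bare particle values overlapped. The fall from untreated was -2.87 (SE 0.30, 95% interval -3.55 to -2.20), which is 7.32-fold lower (limma adjusted p = 6.08e-04). Against the bare particle it was -2.75 (SE 0.30), 6.74-fold lower (limma adjusted p = 3.31e-04). It was -3.00 after centring within level classes and -1.75 after quantile normalization, past the threshold in both.

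The second RB1 probe set, 11749112_a_at, was designed on a cDNA clone and is dim. It read 0.17, -0.06 and 0.10 on the untreated arrays, 0.00, 0.08 and -0.15 with the bare particle, and 0.04, 0.00 and 0.00 with the conjugate. The third, 11753684_a_at, was designed on a GenBank mRNA and is bright, and it read 0.04, -0.50 and -0.07, then 0.00, -0.02 and -0.14, then -0.41, -0.05 and -0.09 in the same order of groups. The groups overlapped in both. The difference between conjugate and untreated was -0.06 (95% interval -0.44 to 0.33, limma adjusted p = 0.792) for the dim probe set and lay between -0.46 and 0.45 for the bright one (limma adjusted p = 0.984). Both intervals lie wholly above the interval of the falling probe set.

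Both of these RB1 probe sets passed the test after centring within level classes, in opposite directions. The bright one then stood 1.22 above untreated (limma adjusted p = 0.0183), a value relative to a class that fell by a median of 1.26. The dim one stood at -0.54 (limma adjusted p = 0.039), relative to a class that rose by a median of 0.50. Within an array, the falling RB1 probe set minus the mean of the other two averaged -2.52 (SD 0.58, n = 3) with the conjugate, 0.19 (SD 0.19, n = 3) with the bare particle and 0.32 (SD 0.60, n = 3) in untreated cells. No conjugate array overlapped with an untreated one in this difference, which is a description, since the calls themselves set which probe set counted as falling. Such disagreement was common: of 4913 genes with 2 or more probe sets of which at least 1 fell, 3745 (76.2%) also had 1 that did not. The spread of change among the RB1 probe sets was 2.87, against a median of 0.94 over 3173 genes with 3 probe sets. Whether the probe sets read different RB1 transcripts or differ in their probes was not tested.

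RBL1 was higher with the conjugate in 1 of its 3 probe sets. RBL1 11738630_a_at read 0.00, -0.29 and -0.52 on the untreated arrays, -0.97, -0.56 and -0.84 with the bare particle and 0.62, 0.68 and 0.22 with the conjugate. The 3 groups were in order with no overlap, the bare particle lowest and the conjugate highest. The rise was 0.78 over untreated (SE 0.22, limma adjusted p = 0.0179) and 1.29 over the bare particle (SE 0.22, limma adjusted p = 0.00161), which is 2.45-fold. A second probe set, 11740383_at, read 0.24, 0.11 and 0.06 in untreated cells, -0.42, -0.30 and -0.19 with the bare particle, and 0.11, 1.24 and 0.05 with the conjugate. Only its second conjugate array stood apart from the untreated ones, and its difference was 0.33 (95% interval -0.33 to 0.99, limma adjusted p = 0.356) from untreated and 0.77 (limma adjusted p = 0.0426) from the bare particle. The dim RBL1 11740382_at differed from untreated by 0.12 (95% interval -0.30 to 0.53). The rise of 11738630_a_at over untreated was 0.65 (limma adjusted p = 0.026) after centring within level classes, and it missed the threshold without untreated array 2 (0.77), untreated array 3 (0.65) or conjugate array 1 (0.72), after quantile normalization (0.89, limma adjusted p = 0.0721), with 2 groups alone (limma adjusted p = 0.0569) and with array weights (limma adjusted p = 0.119). The rise of 11740383_at over the bare particle was lost without any 1 of 7 arrays, at 0.38 without conjugate array 2 and 0.71 to 0.83 without the others, and also after median centring (0.60), after centring within level classes (0.64), with 2 groups alone and with array weights.

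RBL2, the pocket protein most associated with resting cells, fell in 1 of 4 probe sets. RBL2 11718166_a_at read -0.06, -0.04 and 0.25 on the untreated arrays, -0.21, -0.06 and 0.00 with the bare particle, and -0.97, -1.05 and -0.33 with the conjugate. The conjugate arrays did not overlap with the other 6, though the third lay close to them. The change was -0.83 (SE 0.23, limma adjusted p = 0.0155) from untreated, -0.69 (limma adjusted p = 0.0232) from the bare particle, and -0.96 (limma adjusted p = 0.010) from untreated after centring within level classes. Quantile normalization reduced these to -0.42 from untreated and -0.25 from the bare particle (limma adjusted p = 0.316 and 0.433), and both calls were also lost with 2 groups alone and with array weights. It missed the threshold against untreated without untreated array 3 (-0.73) or conjugate array 1 (-0.74), and against the bare particle without conjugate array 1 (-0.60), conjugate array 2 (-0.56), bare particle array 2 (-0.68) or bare particle array 3 (-0.65). RBL2 11718165_a_at read -0.29, 0.01 and -0.42, then 0.19, -0.19 and 0.05, then -1.20, -1.76 and -0.13 in the same order of groups. The third conjugate array lay within the untreated range. The difference of -0.80 from untreated missed the threshold (SE 0.36, limma adjusted p = 0.0841), while that of -1.05 from the bare particle passed it (limma adjusted p = 0.0265). The first became a call at -1.25 without conjugate array 3, and the second was lost without conjugate array 1 (-0.96), conjugate array 2 (-0.69), bare particle array 1 (-0.96) or bare particle array 3 (-1.03), after quantile normalization (-0.45) and with 2 groups alone. The remaining RBL2 probe sets, 11747866_a_at and 11748255_a_at, differed from untreated by 0.02 (95% interval -0.42 to 0.45) and 0.32 (95% interval -0.08 to 0.73), and neither passed. After centring within level classes RBL2 11747866_a_at stood at -0.60 against the bare particle and passed (limma adjusted p = 0.046).

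**Figure D1:**
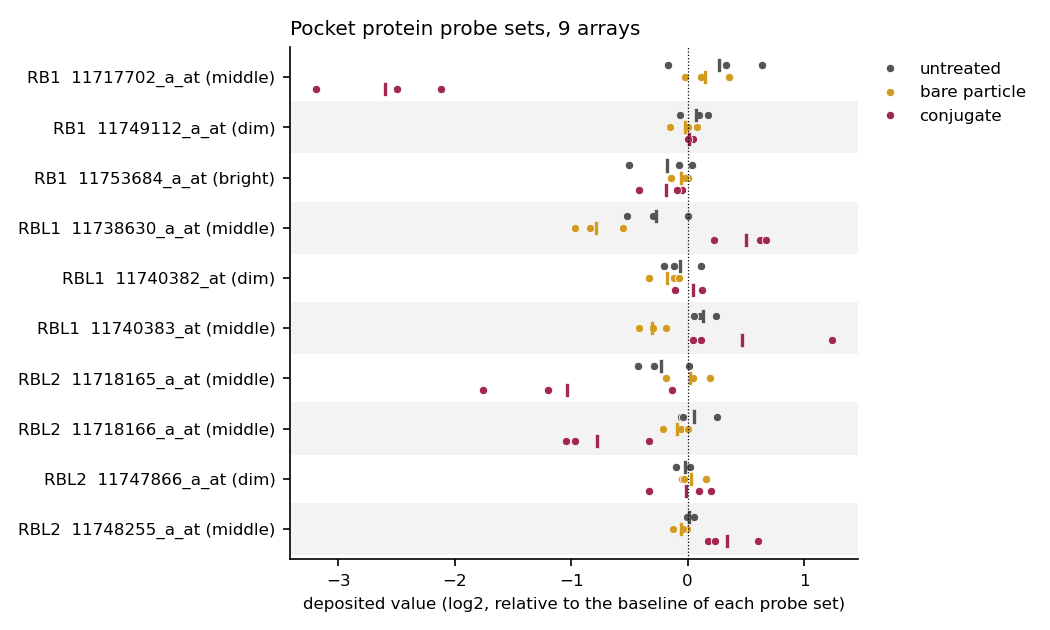
Deposited log2 values of the 10 probe sets of RB1, RBL1 and RBL2, with 1 point per array, colours for the 3 groups of 3 arrays and a bar at each group mean. RB1 11717702_a_at holds the lowest conjugate values, -2.12 to -3.19, while the other 2 RB1 probe sets overlap between groups.

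Of the 6 activator probe sets, 3 fell with the conjugate and 0 rose at the adjusted threshold or at an unadjusted p of 0.05, with a median change of -0.69 against 0.23 over all probe sets. All 3 that fell are bright, a class in which 64% of the array fell. E2F1, the founding member and a target of its own family, had 1 probe set, 11723713_at. It read 0.19, 0.31 and 0.08 on the untreated arrays, -0.03, 0.04 and 0.22 with the bare particle, and -0.83, -1.12 and 0.26 with the conjugate. The first and second conjugate arrays were low and the third lay within the untreated range, so the groups overlapped. The difference of -0.75 from untreated missed the threshold (SE 0.32, limma adjusted p = 0.0696), as did that of -0.64 from the bare particle (limma adjusted p = 0.0973). Without the third conjugate array it was -1.17 (limma adjusted p = 2.14e-04), and the difference from untreated passed with a trended, robust spread in limma.

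E2F2, an activator closely related to E2F1, had probe sets that lay on opposite sides of untreated. E2F2 11724079_s_at, a bright probe set, read -0.44, -0.15 and -0.08 on the untreated arrays, 0.08, 0.02 and 0.00 with the bare particle, and -1.11, -0.87 and -0.59 with the conjugate. The groups did not overlap, and the fall was -0.63 from untreated (SE 0.20, limma adjusted p = 0.0265) and -0.89 from the bare particle (limma adjusted p = 0.00457). Its sign turned to 0.59 after centring within level classes and to 0.07 after quantile normalization, so its direction depends on the scaling. The fall from untreated also missed the threshold without untreated array 2 (-0.59), untreated array 3 (-0.56) or conjugate array 1 (-0.51), with 2 groups alone, with array weights and with a trended, robust spread. The fall from the bare particle turned to 0.41 with level centring and was -0.61 after quantile normalization (limma adjusted p = 0.0509). E2F2 11724078_at, in the middle class, read 0.00, 0.08 and 0.03, then -0.47, -0.11 and 0.05, then 0.68, 1.18 and -0.49 in the same order of groups. The conjugate arrays lay on both sides of the others, and the difference from untreated was 0.42 (95% interval -0.39 to 1.23, limma adjusted p = 0.343), and 0.89 without conjugate array 3 (limma adjusted p = 0.00361).

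E2F3 gave the largest falls among the activators. E2F3 11742800_s_at, a bright probe set, read 0.00, 0.20 and 0.26 on the untreated arrays, 0.13, 0.08 and 0.19 with the bare particle, and -2.43, -3.16 and -1.40 with the conjugate. E2F3 11754266_s_at, also bright and designed on an expressed sequence tag, read -0.10, 0.12 and 0.32, then 0.26, 0.25 and 0.18, then -3.35, -3.53 and -1.47 in the same order. In both, every conjugate array lay below every other array, with the third the highest of the 3. The first fell by 2.48 from untreated (SE 0.36, 5.59-fold lower, limma adjusted p = 0.00169). The second fell by 2.90 (SE 0.45, 7.46-fold lower, limma adjusted p = 0.00211) and was 8.09-fold lower than with the bare particle (limma adjusted p = 0.00101). After centring within level classes the changes from untreated were -1.26 and -1.68, and after quantile normalization -1.42 and -1.53, all past the threshold.

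The third E2F3 probe set, 11752100_s_at in the middle class, did not follow them. It read -0.03, -0.20 and 0.54 on the untreated arrays, 0.00, -0.11 and 0.09 with the bare particle, and 0.42, 1.12 and -0.68 with the conjugate. The groups overlapped, and the difference from untreated was 0.18 (SE 0.39, 95% interval -0.70 to 1.06, limma adjusted p = 0.706), and 0.66 without conjugate array 3 (limma adjusted p = 0.0427). Within an array the mean of the 2 falling E2F3 probe sets minus this one was -3.30, -4.47 and -0.76 with the conjugate and between -0.25 and 0.36 in untreated cells. By the naming of the array maker, the ending _s_at marks a probe set that can read transcripts of more than one gene, which applies to all 3 E2F3 probe sets and to E2F2 11724079_s_at.

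**Figure D2:**
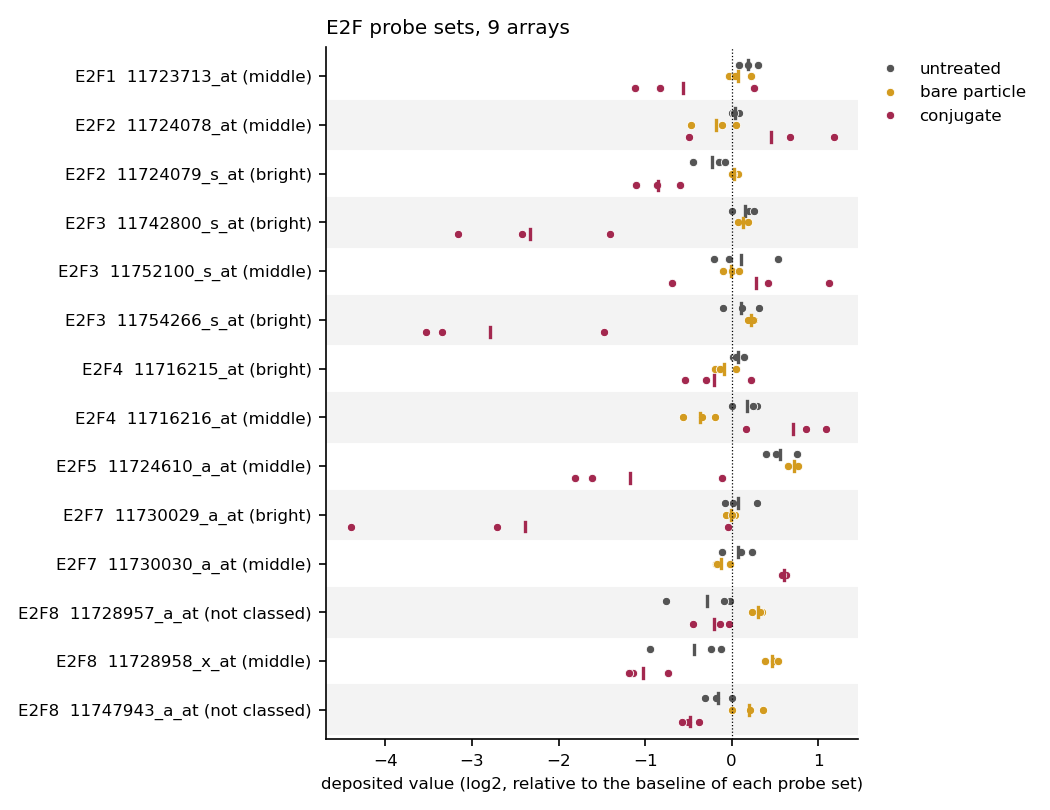
Deposited log2 values of the 14 E2F probe sets, with 1 point per array, colours for the 3 groups of 3 arrays and a bar at each group mean. Both falling E2F3 probe sets, E2F5 and E2F7 11730029_a_at hold the lowest conjugate values, and the third conjugate array of E2F7 11730029_a_at, at -0.04, lies among the untreated arrays.

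Of the 3 probe sets of the pocket-bound repressors, 1 fell with the conjugate and 0 rose at the adjusted threshold or at an unadjusted p of 0.05. It was E2F5, a partner of RBL2 in resting cells. E2F5 11724610_a_at, in the middle class, read 0.75, 0.51 and 0.40 on the untreated arrays, 0.75, 0.65 and 0.76 with the bare particle, and -1.80, -1.61 and -0.11 with the conjugate. The conjugate arrays were the lowest 3 of the 9. The fall was -1.73 from untreated (SE 0.38, 3.32-fold lower, limma adjusted p = 0.00693) and -1.90 from the bare particle (SE 0.38, 3.73-fold lower, limma adjusted p = 0.00289). Centring within level classes left it at -1.85, past the threshold.

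E2F4, the most abundant repressor E2F in many cell types, did not pass against untreated cells. E2F4 11716215_at, a bright probe set, read 0.02, 0.05 and 0.15 on the untreated arrays, -0.19, -0.14 and 0.05 with the bare particle, and -0.29, -0.54 and 0.22 with the conjugate. The groups overlapped, and the difference from untreated was -0.27 (95% interval -0.77 to 0.22, limma adjusted p = 0.307), which turned to 0.95 after centring within level classes (limma adjusted p = 0.00691) and was called at -0.49 without conjugate array 3. E2F4 11716216_at, in the middle class, read 0.29, 0.25 and 0.00, then -0.56, -0.19 and -0.34, then 0.86, 1.09 and 0.17 in the same order of groups. The bare particle arrays were the lowest and the conjugate arrays reached highest. The conjugate differed by 0.53 from untreated (95% interval -0.04 to 1.09, limma adjusted p = 0.104) and rose by 1.07 over the bare particle (SE 0.25, limma adjusted p = 0.00566). Without conjugate array 3 the first of these was 0.80 and passed (limma adjusted p = 0.00307).

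E2F7, which shuts down E2F targets late in S phase, had 1 probe set that fell and 1 that rose. E2F7 11730029_a_at, designed on the RefSeq mRNA and bright, read -0.08, 0.29 and 0.02 on the untreated arrays, 0.03, -0.06 and 0.00 with the bare particle, and -2.71, -4.40 and -0.04 with the conjugate. The first and second conjugate arrays were far below all others and the third was among them, so the groups overlapped. The fall was -2.46 with a wide error (SE 0.82, 95% interval -4.28 to -0.64, limma adjusted p = 0.0321). It was -3.63 without the third conjugate array (limma adjusted p = 2.59e-05) and -1.24 after centring within level classes, where it missed the threshold (limma adjusted p = 0.092). It also missed it without any 1 of the untreated arrays (-2.54, -2.35 and -2.49 for arrays 1 to 3), without conjugate array 1 (-2.30) and without conjugate array 2 (-1.45), after quantile normalization (-1.22, limma adjusted p = 0.056) and with 2 groups alone (limma adjusted p = 0.0754).

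The other E2F7 probe set, 11730030_a_at in the middle class, read 0.23, 0.10 and -0.11 on the untreated arrays, -0.19, -0.02 and -0.17 with the bare particle, and 0.60, 0.63 and 0.59 with the conjugate. Its conjugate arrays lay close together and above the other 6. The rise was 0.53 over untreated (SE 0.18, limma adjusted p = 0.0321) and 0.73 over the bare particle (SE 0.18, limma adjusted p = 0.00624). The rise over untreated missed the threshold without untreated array 2 (0.54), untreated array 3 (0.44), conjugate array 1 (0.53) or any 1 bare particle array (0.53), with an adjusted p of 0.0552 to 0.112 in those limma fits. It was 0.40 after centring within level classes (limma adjusted p = 0.0667), 0.20 after quantile normalization (limma adjusted p = 0.673) and 0.37 after median centring (limma adjusted p = 0.0987). It also missed the threshold with the replicate block (limma adjusted p = 0.0522), with 2 groups alone (0.104) and with array weights (0.174), so the call held in 5 of 17 alternatives. The rise over the bare particle was lost only after quantile normalization (0.53, limma adjusted p = 0.105). A gene with 1 probe set called lower and 1 called higher was found for 1056 of 11734 genes with 2 or more probe sets (9.0%).

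E2F8, the partner of E2F7, had 3 probe sets, none past the threshold between conjugate and untreated cells. E2F8 11728958_x_at read -0.95, -0.12 and -0.24 on the untreated arrays, 0.39, 0.49 and 0.53 with the bare particle, and -1.14, -1.19 and -0.74 with the conjugate. The bare particle arrays were above all others, and the first untreated array lay among the conjugate arrays. The difference between conjugate and untreated was -0.59 (SE 0.25, limma adjusted p = 0.0705), and the fall from the bare particle was -1.49 (SE 0.25, 2.81-fold lower, limma adjusted p = 0.00145). The first of these passed without untreated array 1 (-0.84) or conjugate array 3 (-0.73), after centring within level classes (-0.71, limma adjusted p = 0.0428) and after median centring (-0.75, limma adjusted p = 0.0429). By the naming of the array maker, the ending _x_at marks a probe set with probes that can bind other transcripts.

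E2F8 11747943_a_at read -0.31, -0.18 and 0.00 in untreated cells, 0.22, 0.01 and 0.37 with the bare particle, and -0.38, -0.51 and -0.57 with the conjugate. Its groups did not overlap, and the conjugate lay -0.32 from untreated (limma adjusted p = 0.162) and -0.68 from the bare particle (SE 0.19, limma adjusted p = 0.0104), the second of which missed the threshold without bare particle array 3 (-0.60, limma adjusted p = 0.0506) or with array weights (limma adjusted p = 0.0808). The first passed after median centring (-0.49, limma adjusted p = 0.0491). E2F8 11728957_a_at read -0.76, -0.01 and -0.09, then 0.35, 0.23 and 0.33, then -0.03, -0.13 and -0.44 in the same order of groups. The conjugate arrays lay within the untreated range and below the bare particle arrays, with differences of 0.09 (limma adjusted p = 0.766) and -0.51 (limma adjusted p = 0.079), the latter called without untreated array 1 (limma adjusted p = 0.0471) and after median centring (-0.68, limma adjusted p = 0.0266).

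**Figure D3:**
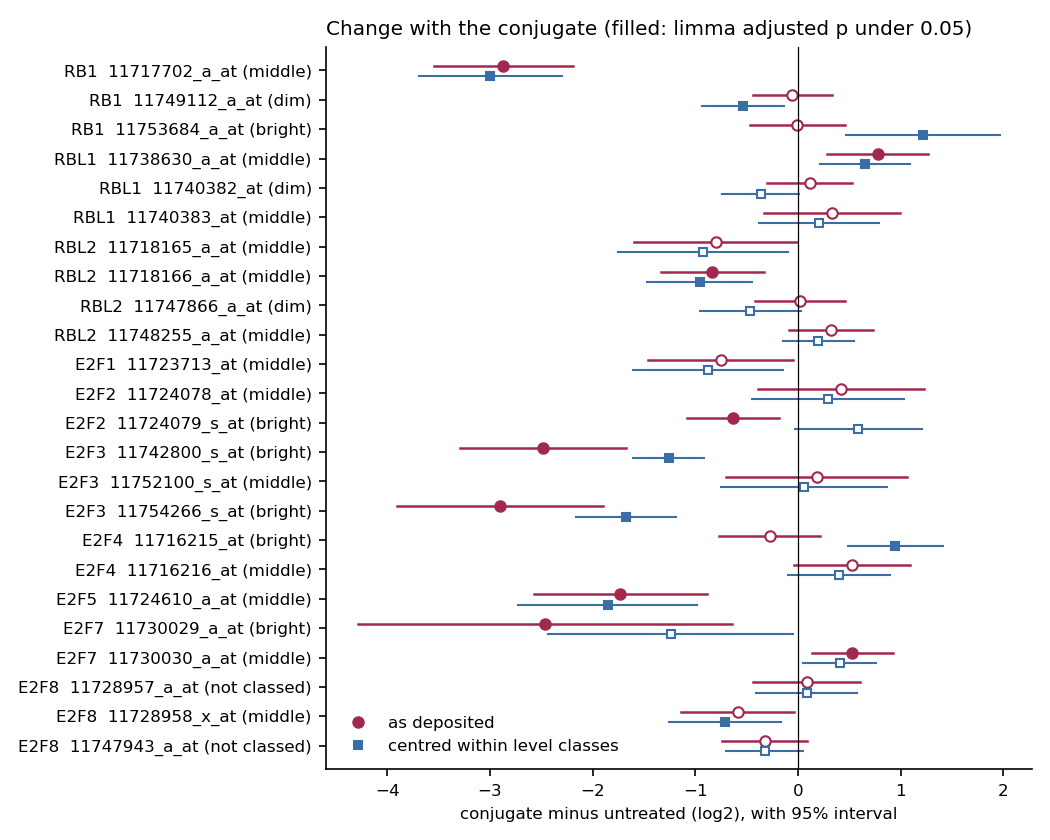
Log2 difference between conjugate and untreated cells for all 24 probe sets, each with its 95% interval from the fit over 9 arrays. Circles show the values as deposited and squares those centred within level classes, and filled marks passed the adjusted threshold. As deposited, the intervals of RB1 11717702_a_at, E2F5 and 2 of 3 E2F3 probe sets lie at or below -0.88, while other probe sets of RB1 and E2F3 include 0.

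Activators and repressors were contrasted over genes, each gene being the mean of its probe sets. The activator genes averaged 0.07 (SD 0.09, n = 3) on the untreated arrays, 0.04 (SD 0.09) with the bare particle and -0.79 (SD 0.26) with the conjugate. The repressor genes E2F4, E2F5, E2F7 and E2F8 averaged 0.12 (SD 0.06), 0.19 (SD 0.04) and -0.60 (SD 0.48) in the same order. The change from untreated was -0.87 for activators and -0.71 for repressors, and -0.47 and -0.48 after centring within level classes.

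The activator minus repressor value was -0.10, -0.08 and 0.06 on the untreated arrays, -0.19, -0.15 and -0.10 with the bare particle, and -0.17, 0.02 and -0.43 with the conjugate. The conjugate and untreated values overlapped, and the change of -0.15 was smaller than the SD of 0.23 among the conjugate arrays. It was 0.01 after centring within level classes and -0.43 when a gene was the median of its probe sets. No test was run on this score. In each class 1 gene supplied the largest fall, E2F3 at -1.73 (SE 0.20, limma adjusted p over all genes = 9.01e-04) among activators and E2F5 at -1.73 (SE 0.37, limma adjusted p over genes = 0.0058) among repressors. By probe set, 3 of 6 activators fell and 0 rose, against 2 of 8 repressors that fell and 1 that rose, where 23.7% of the array fell and 24.9% rose. Whether these shares differ was not tested, and 3 of the 6 activators but 2 of the 8 repressors are bright.

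**Figure D4:**
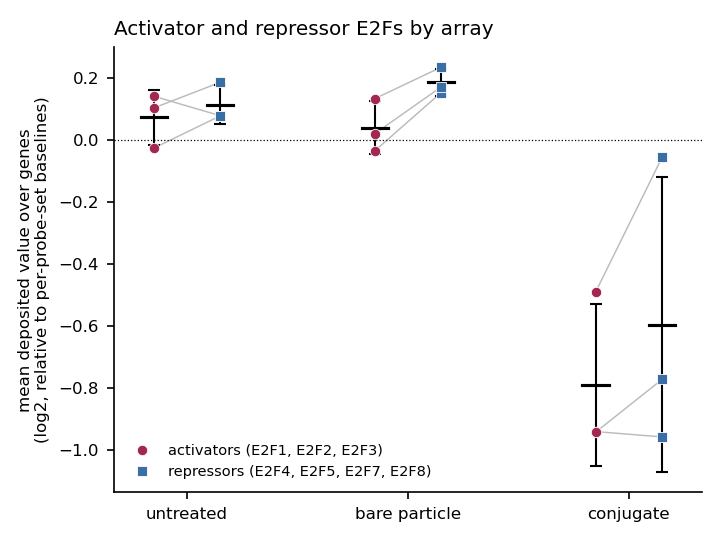
Mean deposited log2 value per array over the activator genes E2F1 to E2F3 and over the repressor genes E2F4, E2F5, E2F7 and E2F8. Points are arrays, bars are group means with the SD, and grey lines join the activator and repressor values of an array. Both classes are lower on the conjugate arrays, and their difference, which is given in the text and not drawn, overlaps between conjugate and untreated cells.

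The bare particle was compared with untreated cells to ask what the carrier does by itself. None of the 24 probe sets passed (limma), and 4 of 49293 on the array did, all higher (0.00811%). At an unadjusted p of 0.05, 1 of the 24 was lower and 2 were higher, where 1.80% and 2.84% of all probe sets were. The lower one was RBL1 11738630_a_at at -0.51 (SE 0.22, limma unadjusted p = 0.042). The 2 higher ones belonged to E2F8, 11728958_x_at at 0.90 (SE 0.25, limma unadjusted p = 0.00437) and 11728957_a_at at 0.59 (SE 0.23, limma unadjusted p = 0.0299), and each had an adjusted p of 0.971. For both, all 3 bare particle arrays lay above all 3 untreated arrays. Quantile normalization called 5 of the 24, E2F8 11728958_x_at at 1.55 (limma adjusted p = 0.00742), E2F8 11728957_a_at at 1.04 (0.0402), E2F4 11716216_at at -1.28 (0.0136), RBL1 11738630_a_at at -1.17 (0.0293) and RBL1 11740383_at at -1.06 (0.0202). As deposited these differences were smaller, at 0.90, 0.59, -0.54, -0.51 and -0.44 in the same order. Quantile normalization gives every array the same distribution, here of values relative to a baseline. It can therefore stretch or shrink such differences by itself. Array weights called E2F8 11728958_x_at as well (0.90, limma adjusted p = 0.0249). The shares of all probe sets called under quantile normalization and array weights were not worked out. These calls therefore have no background beside them and are not read as particular to these genes. The differences of the 24 ran from -0.54 for E2F4 11716216_at to 0.90, with a median of -0.09 against -0.04 over all probe sets. RB1 11717702_a_at differed by -0.12 (95% interval -0.79 to 0.56), so a fall of the size seen with the conjugate lies outside its interval.

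Against the bare particle, the conjugate had 10 of 24 probe sets lower and 4 higher, where 28.3% and 36.3% of all probe sets were (limma, same threshold). The lower ones were 1 of RB1, 2 of RBL2, 1 of E2F2, 2 of E2F3, E2F5, 1 of E2F7 and 2 of E2F8. The higher ones were 2 of RBL1, 1 of E2F4 and 1 of E2F7. The fall of E2F7 11730029_a_at from the bare particle was -2.37 (SE 0.82, limma adjusted p = 0.028) and missed the threshold without conjugate array 1 (-2.21), conjugate array 2 (-1.36) or any 1 bare particle array (-2.40 to -2.35), after centring within level classes (-1.07, limma adjusted p = 0.119) and with 2 groups alone (limma adjusted p = 0.0616). It was -1.09 after quantile normalization. Without bare particle array 3 the lower count was 6, and without conjugate array 3 the higher count was 7, and the shares over all probe sets in those fits were not worked out. The pocket proteins had 3 lower and 2 higher of 10, the activators 3 and 0 of 6 (0 higher also at an unadjusted p of 0.05), the pocket-bound repressors 1 and 1 of 3, and the atypical repressors 3 and 1 of 5. This comparison and the one with untreated cells share the conjugate arrays, so the same calls in both are not separate evidence.

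The genes that act with these factors were described from lists of G1 regulators, E2F partners, co-repressors and E2F targets, at the level of genes, where 25.1% fell and 33.1% rose with the conjugate relative to untreated and the median over all genes was 0.25. Of 14 G1 cyclins, kinases and inhibitors measured, 3 fell and 1 rose, with a median of -0.15, and 6 fell without conjugate array 3. CCNE2, a cyclin that drives entry into S phase, fell by 1.80 (SE 0.31, limma adjusted p = 0.00284), and CDKN1B, the inhibitor p27, fell by 1.90 (SE 0.42, limma adjusted p = 0.00665). CDKN2B, the inhibitor p15 of the kinases that phosphorylate RB1, rose by 0.78 (SE 0.17, limma adjusted p = 0.0065), or 0.41 after centring within level classes. Quantile normalization left CCNE2 at -0.57 without a call and CDKN1B at -0.86.

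Of 12 E2F partners and subunits of the DREAM and MuvB complexes, 7 fell and 1 rose, with a median of -0.73. E2F6, a repressor E2F that binds no pocket protein, fell by 1.84 (SE 0.22, limma adjusted p = 9.01e-04), and LIN37, a subunit that holds the repressed state, fell by 1.65 (SE 0.22, limma adjusted p = 0.00123). The dimer partners of the E2Fs, named here after their values were seen, also fell, TFDP1 by 0.75 (SE 0.20, limma adjusted p = 0.0125) and TFDP2 by 1.73 (SE 0.29, limma adjusted p = 0.00254). Quantile normalization left E2F6 at -1.08 and, without a call, LIN37 at -0.54, TFDP1 at -0.57 and TFDP2 at -0.10, and array weights also ended the call of TFDP1 (limma adjusted p = 0.0613). The third dimer partner, TFDP3, rose by 0.75 (SE 0.23, limma adjusted p = 0.021), but stood at 0.27 after centring within level classes (limma adjusted p = 0.176) and 0.16 after quantile normalization, without a call in either.

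Of 10 co-repressors and chromatin partners of the pocket proteins, 6 fell and 0 rose (1 rose at an unadjusted p of 0.05), with a median of -0.75. SIN3A, the scaffold of a deacetylase complex, fell by 1.33 (SE 0.23, limma adjusted p = 0.00292), and KDM5A, a histone demethylase first found as an RB1 binding protein, fell by 1.11 (SE 0.21, limma adjusted p = 0.00406). KDM5A was -0.64 after centring within level classes, and after quantile normalization SIN3A was -0.50 and KDM5A -0.39, neither called. Of 23 E2F target genes of S phase entry, 19 fell and 1 rose, with a median of -1.37. The level classes of the genes in these lists were not worked out. Among bright probe sets of the array 64% fell, with a median of -1.26. Whether the lists fell more than genes of like level is therefore not known. CDK1, the mitotic kinase, fell by 1.17 (SE 0.17, limma adjusted p = 0.00156), and PCNA, the sliding clamp of replication, fell by 1.01 (SE 0.16, limma adjusted p = 0.00203). They were -0.52 and -0.64 after centring within level classes, and -0.59 and -0.55 after quantile normalization, where PCNA lost its call. MCM5, a subunit of the replicative helicase, rose by 0.42 (SE 0.16, limma adjusted p = 0.0445), without a call after centring within level classes (0.29, limma adjusted p = 0.155), after quantile normalization or with array weights.

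Centring within level classes left 2, 6, 5 and 15 genes lower in the 4 lists in the same order, and quantile normalization left 1, 2, 2 and 10. The shares of all genes called under these scalings, or without conjugate array 3, were not worked out. These counts therefore cannot be set against the array. With the bare particle 0 genes were called in any of the 4 lists (limma, against 0.0221% of all genes higher), while 1 gene was lower and 5 higher at an unadjusted p of 0.05, where 2.06% and 3.30% of all genes were. The list medians lay between 0.13 and 0.18, against -0.06 over all genes. Against the bare particle the conjugate had 5 lower and 2 higher, 7 and 1, 8 and 2, and 20 and 1 in the same order of lists, where 29.1% of all genes were lower and 43.2% higher.

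RB1 was taken here as the mean of its probe sets, which changed by -0.98 from untreated with the conjugate (SE 0.15, limma adjusted p over genes = 0.00203). Of these probe sets only 11717702_a_at was called lower, so the mean mostly follows that probe set. The genes whose mean value over the 9 arrays was most like that of RB1 were FAM171A1 (Pearson r = 0.997), INSM1 (0.997), E2F6 (0.994), RAD50 (0.994) and POLR1B (0.993). These correlations describe 9 arrays in 3 groups, in which the same 3 conjugate arrays stand apart, and 2962 of 18131 genes had an r above 0.9. E2F6 was the E2F among the 5, and INSM1, a zinc-finger factor of neuroendocrine cells, fell by 2.80 (SE 0.28).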

How the data were processed

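Values of 9 arrays, 3 per group, were used as deposited. Per the labels, total RNA was labelled with biotin. How the authors summarized and normalized the probes was not stated in what was used here. The deposited values are taken as log2, though the base is not stated, and a baseline per probe set was inferred because 59.7% of them had a value of exactly 0 somewhere. The table held 49395 probe sets, and its 102 array controls were dropped. Level classes came from the step size of the stored numbers, which grows with the level (2 to 4 dim, 4 to 8 middle, 8 to 16 bright).

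One limma fit (version 3.58.1, R 4.3.3) held all 9 arrays, with 2-sided tests from lmFit and eBayes. Benjamini-Hochberg adjustment ran over the 49293 probe sets, or the 18132 genes where genes were tested, at 0.05. On simulated data with the spread of each group and few changed probe sets, the fit kept its error rate for the bare particle against untreated, but made far more false calls than the threshold allows in both conjugate comparisons. Probe sets with 1 symbol were averaged to give a gene. All probe sets of the 10 genes are given, with up to 2 genes per direction of smallest adjusted p from each pathway list and the 5 genes most correlated with RB1. The members and lists were chosen with earlier results of these data known. Alternatives changed the scaling, the arrays in the fit, a replicate block, the spread model, dim probe sets and the gene summary. Quantile normalization was run on the baseline-relative values and put all 9 arrays on a common distribution. A call gained or lost under it may therefore come from the scaling alone. The number of arrays limits the precision.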

Additional observations from a re-analysis of the deposited data

How the results depend on the processing

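Each member probe set was refitted under 17 alternatives, except that the dim ones were absent from the fit that left dim probe sets out. Shares over all probe sets were not worked out for the alternatives, so their counts have no background beside them. Of the 9 calls between conjugate and untreated, 4 held under every one: RB1 11717702_a_at (-3.11 to -1.75), E2F5 11724610_a_at (-2.26 to -1.41) and E2F3 11742800_s_at and 11754266_s_at (-2.95 to -1.26 and -3.56 to -1.53). The 7 lower calls became 9 after median centring, 4 after quantile normalization and 4 with 2 groups alone, and 4 to 11 when 1 array was left out. The 2 higher calls became 0 after quantile normalization, 1 after median centring, 1 with the replicate block, 0 with 2 groups alone, 0 with array weights, 3 after centring within level classes, and 0 to 5 with 1 array left out. Against the bare particle, leaving out 1 array gave 6 to 11 lower and 3 to 7 higher. For the bare particle against untreated, quantile normalization gave 3 lower and 2 higher, array weights gave 1 higher, and leaving out an array gave 0. Without the third conjugate array, 11 probe sets were lower and 5 higher.

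Centring within level classes turned the sign of 5 probe sets between conjugate and untreated: RB1 11753684_a_at to 1.22, E2F2 11724079_s_at to 0.59 (0.0742 after quantile normalization), E2F4 11716215_at to 0.95 and, without a call before or after, RBL1 11740382_at to -0.36 and RBL2 11747866_a_at to -0.46. Against the bare particle it turned the first 3 to 1.17, 0.41 and 1.19, RB1 11749112_a_at to -0.52 and RBL1 11740382_at to -0.33. These turns follow from the centring, which subtracts the class median from each array and so moves all probe sets of a class by the same amount. Why the classes moved apart was not tested. The activator minus repressor change from untreated (-0.15) was 0.0122 with level centring, -0.43 with medians and -0.26 to -0.04 with 1 array left out. Against the bare particle (-0.05) it was 0.13, -0.32 and -0.16 to 0.07, and for the bare particle (-0.11) it was -0.14 to -0.05.

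Same-numbered conjugate and untreated arrays deviated together with correlations of 0.13, 0.04 and 0.23, so the numbers were not taken as pairs. The replicate block left 1 higher call of the 2 against untreated. With 3 arrays a group and an SD on the conjugate arrays (median 0.47) above that on untreated ones (0.18), small differences cannot be seen.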
